A study of Rattus norvegicus with 6 samples.

Results

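The complement components described here are 9 genes, C1qa, C1qb, C1qc, C1r, C1s, C3, C4a, C6 and C7, taken by symbol from the deposited table of normalized expression, and all 9 were found among its 2125 listed genes. They were measured by RNA sequencing of total RNA in primary dorsal root ganglion cultures from all ganglia of Sprague Dawley rats of 120 g, kept in neurobasal medium with B-27. The treated cultures received 5 mM lidocaine hydrochloride, a local anaesthetic acting on sodium channels, for 24 hours (3 libraries), and the control cultures received no lidocaine (3 libraries). The age and sex of the animals, and whether replicates were separate cultures, are not given in the labels, so each p-value measures only the spread between these libraries, which may be technical.

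Complement is a cascade of secreted proteins that tags cells, debris and immune complexes. In the classical pathway, C1q, assembled from A, B and C chains, binds a surface and activates the serine proteases C1r and C1s, which cleave C4 and in turn lead to the cleavage of C3. Cleaved C4 and C3 attach covalently to the surface and mark it for phagocytes, while C6 and C7 take part in the membrane attack complex. In nervous tissue C1q is made mainly by macrophages and microglia, whereas C1r, C1s and C3 are also made by fibroblasts and glia.

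Both deposited tables hold only genes that the authors had called changed on these same libraries, so a member's call and direction are not independent evidence. Reads in the listed genes numbered 2453051 to 3592141 per library, which covers the listed genes alone and does not give library depth. The labels call the cells neurons. Of 17 neuronal marker genes 2 were listed, Gap43 and Elavl4, with a summed FPKM (fragments per length of gene and size of library) of 364 to 390 in the lidocaine libraries and 750.0 to 789 in the control libraries, and the other 15 are not analysed here. Of 18 macrophage markers 14 were listed, with a summed FPKM of 21.4 to 23.7 in the lidocaine and 128 to 134 in the control libraries. Of 14 fibroblast markers 7 were listed (138 to 142 in the lidocaine and 514 to 565 in the control libraries). Schwann cell markers (5 of 12 listed) summed to 47.9 to 49.5 FPKM with lidocaine and 199 to 202 in control. Satellite glia markers (4 of 8 listed) summed to 66.0 to 69.1 FPKM with lidocaine and 237 to 240.2 in control, and endothelial and mural markers (9 of 14 listed) to 20.3 to 21.4 FPKM with lidocaine and 60.4 to 65.9 in control. Every listed marker was lower with lidocaine (limma, adjusted p under the threshold of 0.05), where 68.6% of all genes tested were called lower, and the markers had been selected by the authors like every listed gene. However, Gap43, Elavl4 and the mural gene Pdgfrb turned higher when the libraries were rescaled by the median of ratios (0.15, 0.18 and 0.13 on the log2 scale). That scaling centres the listed genes near 0, so these signs depend on it.

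All 9 complement genes were lower with lidocaine, and in each of them the highest lidocaine library lay below the lowest control library. The C1q chains, the recognition unit of C1, fell most, by 13.2-fold to 48.2-fold, and C7, a membrane attack component, fell 9.82-fold. C3, the central component, fell 5.06-fold, and C4a, C6, C1s and C1r fell 2.60-fold to 3.77-fold. These folds are ratios of mean normalized reads. All 9 members passed the test (limma, Benjamini-Hochberg over the 1851 listed genes that averaged at least 10 normalized reads, threshold 0.05), all in the lower direction, where 68.6% of the genes tested were called lower. Of the genes tested 1269 were called lower and 572 higher. Nearly all thus passed, since the authors had selected them on these libraries, and passing does not set the members apart. The groups were separated in the lower direction in 67.6% of the genes tested. The median log2 fold change was −2.34 over the 9 members and −1.25 over all genes tested, and the members spanned −5.55 to −1.38. The median over all genes tested takes in the higher genes too, so it is not that of the lower genes. In bulk cultures, fewer cells of a type and less RNA per cell cannot be told apart.

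**Figure D1:**
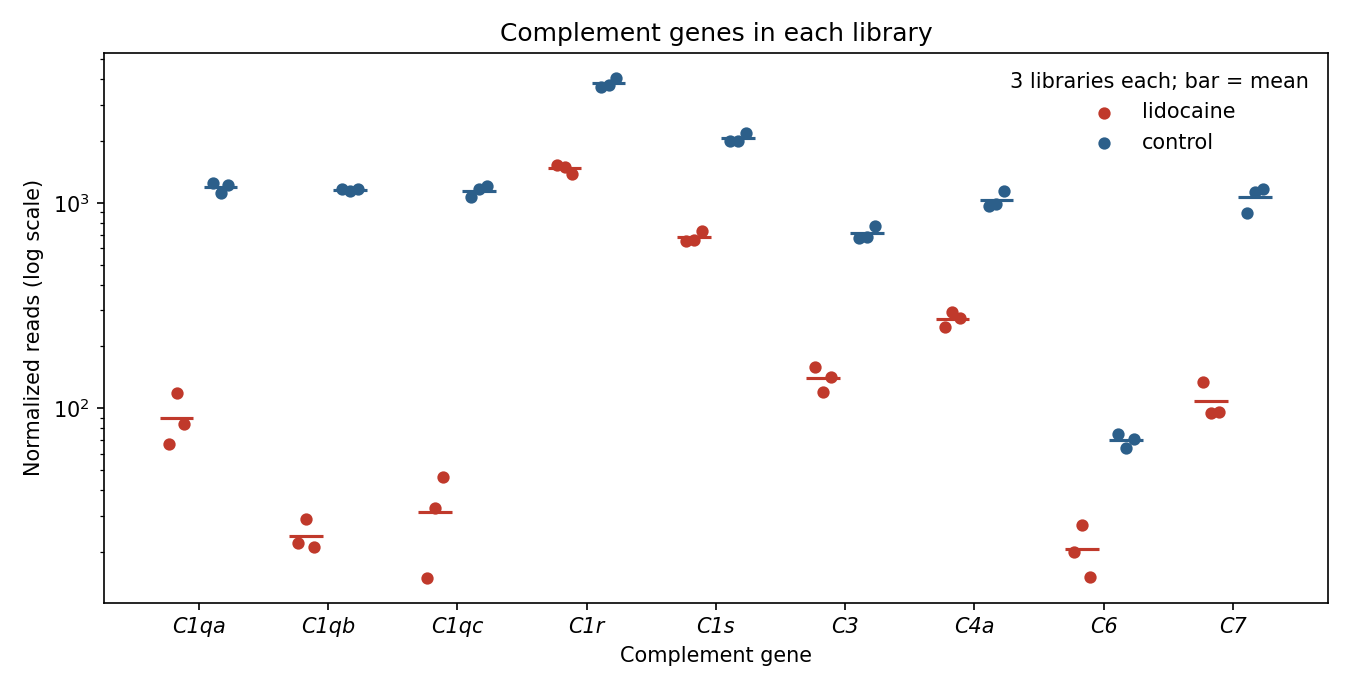
Normalized reads of the 9 complement genes (log axis) in each of 3 lidocaine libraries (red) and 3 control libraries (blue), with horizontal bars at the group means. The groups are apart in every gene, and the widest gaps are those of C1qb, with means of 24.0 reads in lidocaine and 1158 in control, and C1qc, with 31.3 in lidocaine and 1147 in control.

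The C1q chains, which recognise the target, had the lowest levels relative to control. C1qa, which encodes the A chain, had 67, 119 and 84.3 normalized reads in the lidocaine libraries, against 1249, 1113 and 1215 in the control libraries. C1qb, the B chain, had 22, 29.0 and 21.1 normalized reads with lidocaine, against 1170.05, 1142 and 1163 in control. C1qc, the C chain, had 15, 32.7 and 46.2 normalized reads with lidocaine, against 1067, 1163 and 1212 in control. The control libraries were close together in all 3 chains, whereas among the lidocaine libraries replicate 1 was the lowest for C1qa and C1qc and replicate 2 the highest for C1qa and C1qb. The log2 fold change was −3.75 ± 0.18 for C1qa (SE, n = 3 libraries each; adjusted p by limma = 2.40e-08). It was −5.55 ± 0.15 for C1qb (adjusted p = 4.75e-10 by limma) and −5.28 ± 0.32 for C1qc (adjusted p = 1.38e-07 by limma). C1qb and C1qc were the 16th and 21st lowest of 1851 genes, in a range of log2 fold changes at or below −5 that holds 1.67% of the genes tested. The other members ranked 74th (C1qa), 121st (C7), 278th (C3), 429th (C4a), 535th (C6), 629th (C1s) and 804th (C1r).

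The log2 fold change of C1qa (95% interval −4.16 to −3.34) lay apart from that of C1qb (−5.87 to −5.22) and of C1qc (−6.01 to −4.55). Per length, C1qa stood at 3.16, 4.33 and 4.29 times C1qb in the lidocaine libraries, against 1.10, 1.01 and 1.08 times C1qb in the control libraries. On the log2 scale of normalized reads, C1qa lay 1.83, 1.91 and 1.40 above the mean of C1qb and C1qc in the lidocaine libraries, against 0.16, −0.05 and 0.03 in the control libraries. The difference between the groups was 1.67, with all 3 lidocaine libraries above all 3 control libraries and an exact two-sided permutation p of 0.1, the smallest that 3 against 3 libraries can give. This ratio was chosen after the values had been seen. C1qc stood at 0.673, 1.13 and 2.25 times C1qb per length with lidocaine, a range that takes in the control values of 0.906, 1.01 and 1.04. In the RefSeq assembly GRCr8 C1qc lies between C1qa and C1qb, with no other protein-coding gene among the 3.

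The 250 bases before the gene start are shown for C1qa and C1qb, chain genes of 1 cluster that fell by different amounts. They are also shown for C1r, the member with the smallest fall on the deposited scale. All are given 5′ to 3′ on the gene's strand (RefSeq, GRCr8). The stretches are chr5:154419934-154420183 (minus strand), chr5:154407828-154408077 (minus strand) and chr4:159098763-159099012 (plus strand). Capitals mark each match on either strand to GAGGAA or GGAAGT, short cores of sites for ETS-family factors such as PU.1, a regulator of macrophage genes.
C1qa: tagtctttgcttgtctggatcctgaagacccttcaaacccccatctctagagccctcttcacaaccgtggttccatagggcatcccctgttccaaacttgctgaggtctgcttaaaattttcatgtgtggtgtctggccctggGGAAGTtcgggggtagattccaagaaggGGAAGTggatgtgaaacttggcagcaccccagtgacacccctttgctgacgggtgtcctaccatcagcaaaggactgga
C1qb: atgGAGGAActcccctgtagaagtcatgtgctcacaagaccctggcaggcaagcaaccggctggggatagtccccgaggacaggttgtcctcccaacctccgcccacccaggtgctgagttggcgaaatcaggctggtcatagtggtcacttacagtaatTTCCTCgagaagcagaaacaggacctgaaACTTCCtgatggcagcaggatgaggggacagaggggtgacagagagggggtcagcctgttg
C1r: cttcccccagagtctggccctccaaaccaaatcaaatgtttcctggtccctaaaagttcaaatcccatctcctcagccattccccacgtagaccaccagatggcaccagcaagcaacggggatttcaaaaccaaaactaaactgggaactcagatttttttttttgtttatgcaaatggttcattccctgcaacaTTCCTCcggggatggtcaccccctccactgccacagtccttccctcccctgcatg
GGAAGT was found at −107 and −79 from the gene start in C1qa and, on the opposite strand, at −61 in C1qb. GAGGAA was found at −247 and, on the opposite strand, at −90 in C1qb, and on the opposite strand at −55 in C1r. GGAAGT was added after the sequences had been read, and the motifs can overlap each other. Promoters were matched for 6 members (also C3, C4a and C6, which held neither GAGGAA nor GGAAGT). Over all 33469 promoters, 23.3% held GAGGAA and 19.2% held GGAAGT in the same window, each against 2 of the 6 members. No match to TGANTCA, the core of AP-1 sites, or to CCAAT was found in the 6 windows, where 6.34% and 34.0% of all promoters held one. C1qc, C1s and C7 had no entry.

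The C1 proteases, which C1q activates, had the log2 fold changes nearest to 0 of the 9 members. C1r had 1534, 1487 and 1389 normalized reads in the lidocaine libraries, against 3664, 3753 and 4052 in control. C1s, which cleaves C4, had 652, 657 and 728 normalized reads with lidocaine, against 2011, 1992 and 2183 in control. Per length both were the most abundant members after lidocaine, and the spread within each group was small beside the gap between groups. The log2 fold change was −1.38 ± 0.06 for C1r (SE, n = 3 libraries each; adjusted p by limma = 1.18e-08) and −1.60 ± 0.07 for C1s (adjusted p = 1.11e-08 by limma). C1r and C1s are neighbours in GRCr8 as well. Their per-length ratio was 2.57, 2.47 and 2.08 with lidocaine, against 1.99, 2.05 and 2.02 in control, so C1r was above C1s in every library.

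The C1q chains were compared with their proteases within each library. The mean log2 level of the 3 chains minus that of C1r and C1s was −5.10, −4.32 and −4.50 in the lidocaine libraries, against −1.23, −1.26 and −1.31 in the control libraries. The difference between the groups was −3.37 on the log2 scale, with an exact two-sided permutation p of 0.1, the smallest possible here. Against the mean of the 14 listed macrophage markers, the C1q chains lay at −0.32, 0.11 and −0.07 with lidocaine and at 1.38, 1.46 and 1.45 in control, a difference of −1.53 (exact two-sided permutation p = 0.1, the smallest possible). The macrophage markers themselves all fell (log2 fold changes of −5.66 to −1.81, median −2.75). Among them Lyz2, a lysozyme, had the highest mean, at 636 normalized reads with lidocaine against 4140 in control. Cd163, a scavenger receptor, Cx3cr1, the fractalkine receptor, and Ms4a7 were at 0 in at least 1 lidocaine library, and none of the 14 was at 0 in every one. Their part in the fall of C1q was not tested.

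C3 and C4a encode the components that bind covalently to surfaces. C3 had 158, 121 and 142 normalized reads in the lidocaine libraries, against 671, 684 and 775 in control. C4a had 250, 294 and 274 normalized reads with lidocaine, against 963, 986 and 1137 in control. The groups were well apart for both. The log2 fold change was −2.34 ± 0.12 for C3 (SE, n = 3 libraries each; adjusted p by limma = 3.83e-08) and −1.91 ± 0.10 for C4a (adjusted p = 3.15e-08 by limma), and their 95% intervals, −2.61 to −2.06 and −2.13 to −1.70, overlapped. C4a and its paralog C4b are nearly identical genes, and reads may have been split between them, so the level of each is uncertain. C4b had 88, 109 and 65.2 normalized reads with lidocaine, against 242, 298 and 281 in control, and fell 3.13-fold (limma, adjusted p = 1.79e-05). C4a was 2.63 to 4.12 times C4b per length in the lidocaine libraries and 3.22 to 3.95 times in the control libraries, ranges that overlap.

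Of the terminal components, C6 and C7 were listed. C7, which anchors the growing membrane attack complex to the membrane, had 134, 94.5 and 96.3 normalized reads with lidocaine, against 894, 1134 and 1162 in control. C6, which joins the complex before C7, was the member with the fewest reads, 20, 27.1 and 15.1 with lidocaine, against 75.0, 63.9 and 71.2 in control. Control replicate 1 was the lowest for C7 and the highest for C6. The log2 fold change was −3.29 ± 0.16 for C7 (SE, n = 3 libraries each; adjusted p by limma = 2.25e-08) and −1.74 ± 0.28 for C6 (adjusted p = 0.000181 by limma). Their 95% intervals, −3.65 to −2.94 and −2.36 to −1.12, did not overlap. Per length, C7 was 8.29, 4.13 and 7.92 times C6 with lidocaine, against 14.2, 21.2 and 19.6 times in control. The 2 genes lie near each other in GRCr8 with 1 protein-coding gene between them.

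Levels between genes were compared as FPKM, which is scaled by gene length. In the lidocaine libraries C1r was highest (11.05 ± 0.593), followed by C1s (4.68 ± 0.274), C1qa (1.78 ± 0.527), C4a (1.04 ± 0.0862), C7 (0.890 ± 0.183), C1qc (0.589 ± 0.298), C3 (0.565 ± 0.0747), C1qb (0.449 ± 0.0821) and C6 (0.140 ± 0.0444 FPKM; SD, n = 3 each). In the control libraries C1r was also highest (28.3 ± 1.57), but the C1q chains came next, C1qa at 23.3 ± 1.32, C1qb at 21.9 ± 0.223 and C1qc at 21.5 ± 1.45, followed by C1s (14.0 ± 0.736), C7 (8.63 ± 1.22), C4a (3.88 ± 0.364), C3 (2.81 ± 0.228) and C6 (0.476 ± 0.0376 FPKM; SD, n = 3 each). Neighbours whose libraries overlapped were the run from C4a to C1qb with lidocaine and the 3 C1q chains in control. All other neighbours in either order were separated.

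The make-up of the summed level changed with the order. The 9 genes summed to 20.9, 21.8 and 20.8 FPKM in the lidocaine libraries, against 121, 123 and 131 FPKM in control. The C1q chains made up 13.3% ± 3.29 of this sum with lidocaine, against 53.5% ± 1.22 in control, and the C1 proteases 74.3% ± 2.38 with lidocaine, against 33.9% ± 0.394 in control (SD, n = 3 each). C3 and C4a together held 7.58% ± 0.185 with lidocaine and 5.35% ± 0.244 in control, and C6 and C7 held 4.87% ± 0.898 with lidocaine and 7.29% ± 0.782 in control (SD, n = 3 each). For each of these 4 classes the shares of the 2 groups did not overlap.

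**Figure D2:**
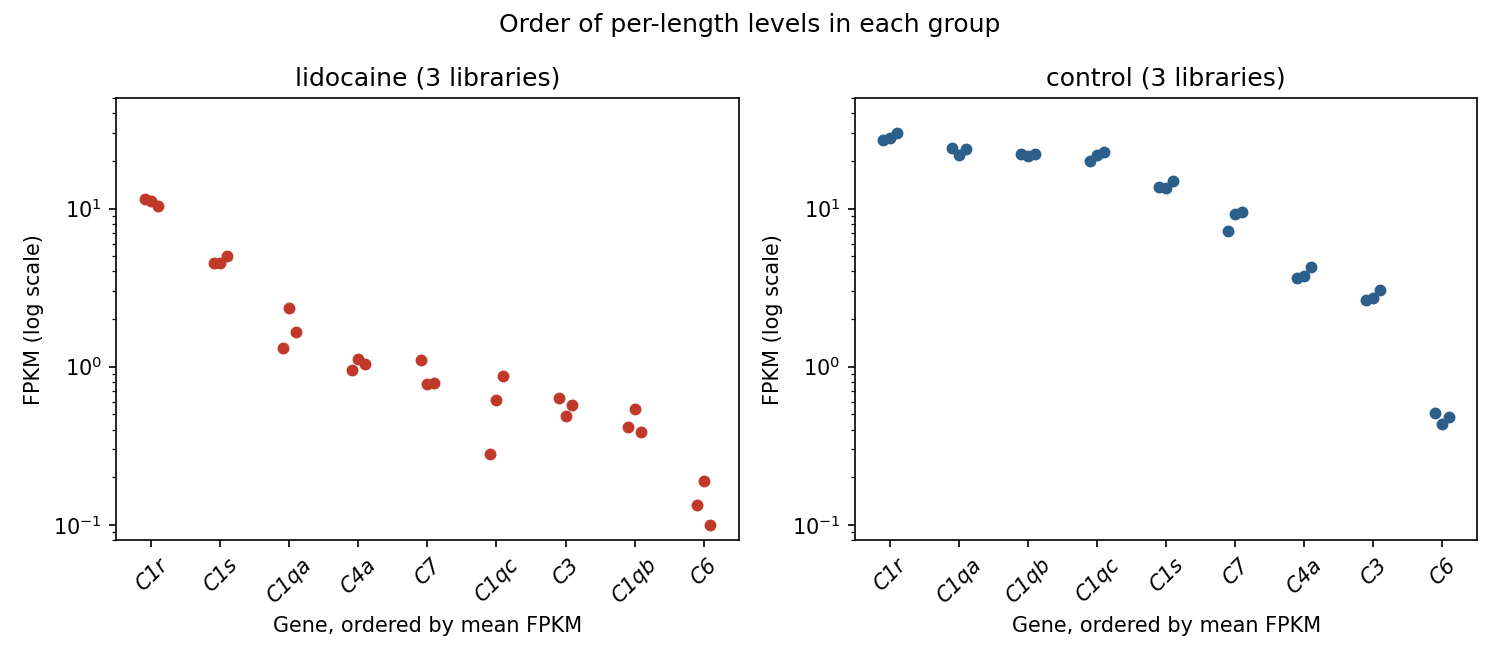
FPKM of the 9 complement genes (log axis) in 3 lidocaine libraries (left) and 3 control libraries (right), each panel ordered by its own mean. C1r leads both, while C1qb stands eighth with lidocaine (0.449 FPKM) and behind C1r and C1qa alone in control (21.9 FPKM).

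Of 40 other complement genes in 5 lists, 11 were listed and 8 passed the filter on low values. All 8 fell, where 68.6% of all genes tested were called lower, and they too had been selected by the authors on these libraries. Of 9 receptors 5 were in the table and each of these fell (median log2 fold change −3.07). C3ar1, the receptor of the C3a fragment, had 0, 0 and 9.03 normalized reads with lidocaine, against 119, 134 and 125 in control, so that no fold is given. C5ar1, the C5a receptor that recruits myeloid cells, fell 8.69-fold, with 27, 21.5 and 26.1 normalized reads with lidocaine, against 252, 206 and 190.5 in control (limma, adjusted p = 1.82e-07). Both receptors are genes of macrophages and neutrophils, and each was separated between the groups. The fitted log2 fold change of C3ar1, which depends on the pseudocount, was −5.88, with −6.99 without lidocaine replicate 3, −6.56 and −4.21 at pseudocounts of 0.5 and 5, and −3.47 on log2(FPKM + 0.1). Cr2, a receptor of C3d, averaged 6.01 ± 5.21 normalized reads with lidocaine and 41.3 ± 4.76 in control (SD, n = 3 each), and was at 0 in 1 lidocaine library. Without lidocaine replicate 2 the log2 fold change of Cr2 was −2.07, against −3.18 with all libraries, and with all libraries it was −2.22 at a pseudocount of 5 and −0.91 on log2(FPKM + 0.1), each past the threshold. C5ar2, a second C5a receptor, fell 2.42-fold and Itgb2, the beta chain of complement receptors on leukocytes, 2.24-fold (limma, adjusted p = 1.53e-05 and 9.40e-07).

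Of 12 regulators 2 were listed, and both fell. Vtn, or vitronectin, which blocks membrane insertion of the terminal complex, fell 4.17-fold (32.2 ± 10.4 normalized reads with lidocaine and 134 ± 23.8 in control; SD, n = 3 each; limma, adjusted p = 4.36e-05). Cd46, a cofactor in the cleavage of C3b and C4b, fell 2.38-fold (limma, adjusted p = 0.000190). Of 11 other genes of classical and lectin activation, C4b, Fcna and Fcnb were listed, and of 3 genes of the alternative pathway Cfd, the protease factor D. Fcna, a ficolin that recognises sugars, had 3, 0 and 0 normalized reads with lidocaine, against 13.1, 27.2 and 11.03 in control, and Cfd had 0, 6.55 and 2.01 with lidocaine, against 11.3, 18.9 and 10.02 in control. Fcnb, another ficolin, was at 0 in all lidocaine libraries and in control replicate 2. These 3 genes were below the filter and were not tested. None of the 5 other terminal components on the list (C5, C8a, C8b, C8g and C9) was among the listed genes, and they are not analysed here.

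**Figure D3:**
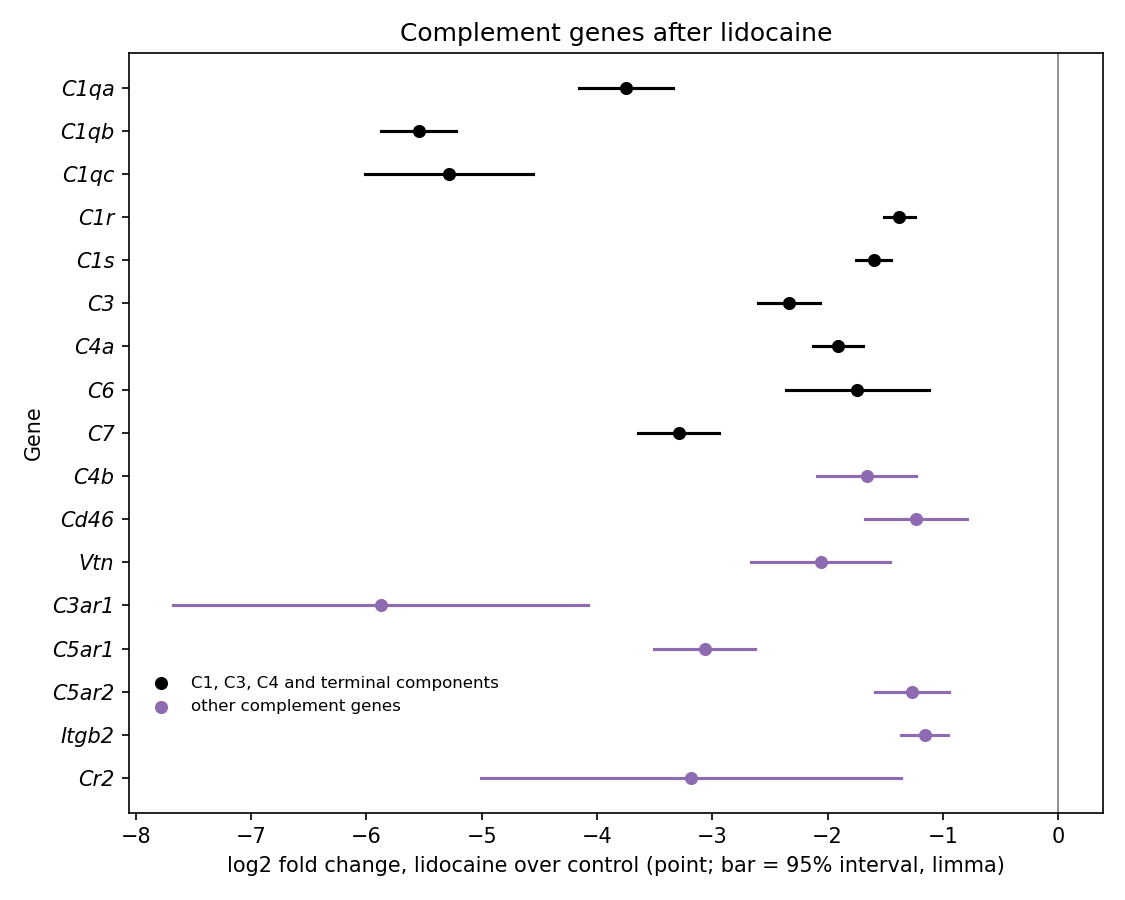
Log2 fold changes of lidocaine over control with 95% intervals (limma, 3 libraries per group) for the 9 members (black) and the 8 other complement genes tested (purple). All 17 intervals lie below 0, with point values from −5.88 for C3ar1 to −1.16 for Itgb2, and the intervals of C3ar1 and Cr2 are the widest.

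The members also shared a pathway annotation, which follows from their choice as complement components and adds no support. In the authors' deposited table all 9 carried the pathway term for the complement and coagulation cascades, which 21 listed genes carried. Of these 21, the 9 members included, the authors' deposited table gives 19 as lower and 2 as higher with lidocaine, beside 69.8% of all 2125 listed genes given as lower. The 2 higher genes, named after their values were seen, belong to coagulation and fibrinolysis. F3, or tissue factor, had a log2 fold change of 2.71 and Plau, or urokinase, of 1.05 (limma).

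The genes whose profiles over the 6 libraries lay closest to the members were found by the root mean square difference of centred log2 values among 1060 other genes averaging at least 100 normalized reads. Because 2 groups dominate 6 libraries, closeness mostly reflects a like fold change. Among the genes closest to the mean of the C1q chains were Stab1, a scavenger receptor of macrophages and sinusoidal endothelium (0.10 log2 units), Pld4 (0.25) and Gldn, a Schwann cell protein of the node (0.28). Closest to the proteases were RGD1563091 (0.03), Col4a2, a basement membrane collagen (0.04), Col1a1, a fibrillar collagen (0.04), Ina, a neuronal intermediate filament (0.05), and Plxnb3, a semaphorin receptor (0.05). Closest to C3 were Ushbp1 (0.06), Pdzd2 (0.08), Thbs1, a matricellular protein (0.10), Ypel1 (0.10) and Scube1 (0.11).

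The size of each fall depends on the scale. Rescaling by the median of ratios, computed on the listed genes alone, moved the median log2 fold change of all genes tested to −0.09, against −1.25 as deposited. This scaling takes most genes as unchanged, whereas every listed gene had an authors' log2 fold change of at least 1.00 in size. A median near 0 therefore follows from the scaling, which cannot show which scale is right. On that scale 29.7% of the genes tested were called lower, and 8 of the 9 members still were. The log2 fold change became −4.38 for C1qb, −4.12 for C1qc, −2.57 for C1qa and −2.11 for C7. It became −1.16 for C3, −0.73 for C4a, −0.42 for C1s, −0.19 for C1r and −0.59 for C6, which no longer passed (limma, Benjamini-Hochberg adjusted p = 0.0958). The same rescaling ended the calls of Cd46, C5ar2 and Cr2 and turned Itgb2 to 0.02.

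**Figure D4:**
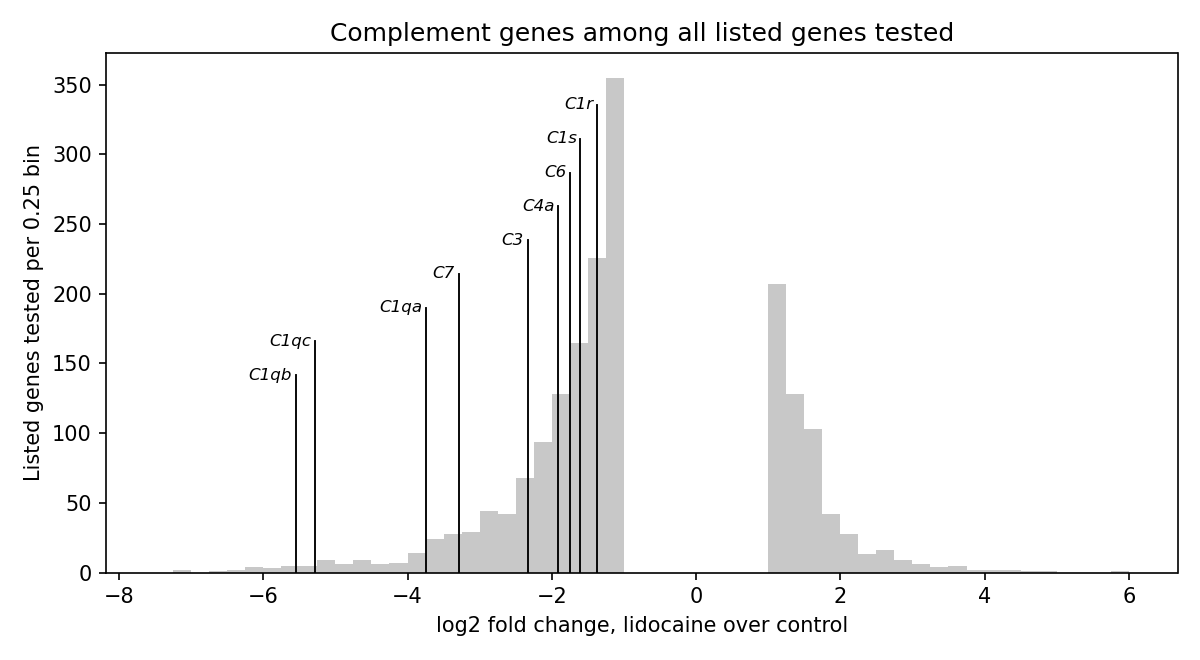
Number of listed genes per bin of 0.25 in log2 fold change of lidocaine over control (grey) with the 9 complement genes as black lines. The empty middle shows the authors' selection by fold change. The members run from C1r at −1.38, the 804th lowest of 1851 genes, to C1qb at −5.55, deep in the lower tail.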

How the data were processed

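Per the submitters' processing notes, the aligner Bowtie 0.12.2, the build rn6 (Rnor_6.0) and DESeq2 were used, with no role stated. Annotation and counter were not given in the sources used here. Normalized expression was deposited by the authors as log2 of normalized reads plus 1 for 2125 genes called significant per the file headers, with their log2 fold change and p-value (at most 0.0499 in the authors' deposited table), and a second table of FPKM values for the same genes. All 12750 log2 values, once undone, were whole multiples of 1 factor per library within 0.02 reads, from which the normalized reads and reads were taken. Count models were not run, since the values are log2 values of selected genes.

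Groups and replicate numbers came from the sample titles. The deposited log2 values entered limma 3.58.1 in R 4.3.3 (trend, two-sided, no replicate block), with Benjamini-Hochberg adjustment over the 1851 genes averaging at least 10 normalized reads; fold changes on this scale understate changes of low genes. The step was tested on simulated data. Members, lists and tests were chosen with earlier results of these data known. Named were the 9 members, every listed gene of the 5 complement lists, and the 5 closest genes to each of 3 profiles, of which some are not reported here; F3, Plau, Lyz2, Cd163, Cx3cr1, Ms4a7, Pdgfrb, Gap43 and Elavl4 were named after their values were seen. Alternatives covered pseudocount, filter, scaling, FPKM, trend, threshold, breadth of adjustment, blocking by replicate number and leaving out each library. Promoter sequences came from RefSeq (GRCr8), a build other than that of the files.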

Additional observations from a re-analysis of the deposited data

Results flagged for a closer look

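The FPKM table also holds a group value of the authors for each condition, used in no comparison, and for 4 of the 20 listed complement genes the lidocaine value lay above the highest control library. For C1r the authors' deposited table gives 32.2 FPKM as the lidocaine group value, above all 3 lidocaine libraries (11.6, 11.2 and 10.4 FPKM) and above the highest control library (30.04 FPKM). The other 3 were Cd46 (2.33 FPKM in the authors' deposited table, against a highest control library of 1.68), C5ar2 (5.21 in the authors' deposited table, against 4.27) and Itgb2 (5.11 in the authors' deposited table, against 3.79). In all 9 members the lidocaine group value of the authors' deposited table exceeded the highest lidocaine library and was 2.42 to 43.4 times the mean of the 3 lidocaine libraries, while the control value in all 9 was the mean of its libraries. For C1qb it is 19.5 FPKM, where the lidocaine libraries averaged 0.449 and the control libraries 21.9 FPKM.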

How the results depend on the processing

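All 9 members kept their direction under each alternative, and C6 alone lost its call, under the median of ratios. C6 was also left out by the filter at a mean of 100, where the 8 members tested all passed. Leaving out each library in turn gave log2 fold changes of −3.97 to −3.56 for C1qa, −5.69 to −5.46 for C1qb, −5.62 to −4.85 for C1qc and −1.41 to −1.34 for C1r, and no member lost its call. With a minimum mean of 100 normalized reads, 687 genes were lower and 381 higher, and 4 other complement genes were lower, because fewer genes were tested. Under the median of ratios 550 genes were lower and 4 other complement genes were lower, and Itgb2 turned to 0.023. As if adjusted over 47357 reference genes, Cr2 did not pass (limma, adjusted p = 0.0981). The replicate numbers did not mark shared deviations (correlations of −0.03, 0.01 and 0.06 between libraries of the same number). With the replicate block 1268 genes were lower and 574 higher, against 1269 and 572 without it, and 9 members and 8 other complement genes were lower, so the block ended no call. Depth limits C1qb, C1qc and C6 most, which had 15 to 46 reads per lidocaine library.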
